A study of Mus musculus with 4 samples.

Results

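Scavenger receptors are surface and lysosomal proteins that bind modified lipoproteins, dying cells, microbes and other polyanionic cargo. In alveolar macrophages, the resident phagocytes of the air spaces, they take part in clearing inhaled particles, bacteria and surfactant lipids. The genes described here are 10 members of this group, Msr1, Marco, Cd36, Scarb1, Scarb2, Cd163, Stab1, Olr1, Cd68 and Cd14, taken by gene symbol from a table of 16755 genes. All 10 were in the table, and all 10 passed the filter on low values (a mean normalized read count of at least 1).

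The 4 bulk RNA-seq libraries came from alveolar macrophages sorted by flow cytometry from mouse lung, 2 of wild-type C57BL6 mice (WT) and 2 of C57BL6 mice lacking osteopontin (OPNKO), the secreted glycoprotein encoded by Spp1. All 4 samples are tagged with bleomycin, a compound used to provoke lung fibrosis in mice, and the column names give day 14, although the treatment protocol entered for them lists none. Title and genotype tag disagree for 2 of the 4 samples, so groups follow the titles. The sources used here do not give age, sex, mice per library or the part of Spp1 that the allele lacks, or say whether replicates are separate animals. The p-values therefore reflect only how far these libraries spread, which may be technical.

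The libraries held 35793800 to 44759630 reads in genes. Spp1 followed the titles, at 545719 and 606517 normalized read counts in WT and 4106 and 3847 in OPNKO. Among defining markers of alveolar macrophages, Siglecf (listed under its other symbol) ranged from 6374 to 8876 and Itgax from 76150 to 94273 across the 4 libraries. Chil3, the most abundant of these 10 markers, had 634850 and 643790 in WT, against 311109 and 411474 in OPNKO (log2 fold change -0.84, limma adjusted p = 0.0528). The list summed to 833789 and 831265 in WT, with 504481 and 609328 in OPNKO, and its other 9 markers to between 187475 and 198939 in every library. Markers of other cells also differed between libraries. Of 8 T cell markers 4 rose in OPNKO, and of 8 B and plasma cell markers 4 fell, with summed levels of 28163 and 36710 in WT and 4766 and 4678 in OPNKO. Fibroblast markers summed to 5445 in WT replicate 2 and to 626 to 1082 in the other 3 libraries. No marker of these lists was at 0 in all 4 libraries.

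Per kilobase of exon, the transcripts spanned a wide range of levels. Cd68, a heavily glycosylated lysosomal protein used as a general macrophage marker, was the highest of the 10, with a mean normalized read count per kb of 40036 ± 240 in WT and 42807 ± 1063 in OPNKO (SD, n = 2 each). Cd14, the co-receptor that hands lipopolysaccharide to Tlr4, came next, at 16843 ± 1379 per kb in WT and 14854 ± 1715 in OPNKO (SD, n = 2). Then came Olr1, Marco, Cd36, Msr1, Scarb2, Scarb1, Stab1 and Cd163 in order of the mean over all libraries. Cd68 stood above 99.8% of the annotated genes in the table and Cd163 above 24.3%. The order of Olr1 over Marco and of Marco over Cd36 held in 3 of 4 libraries, so these neighbours did not differ beyond their spread. Cd36 lay above Msr1 in all 4 libraries although their ranges overlapped. The other 6 neighbouring pairs had ranges that did not overlap. Lengths are those of all annotated exons merged, which lowers the level per kb of genes with long alternative transcripts.

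**Figure D1:**
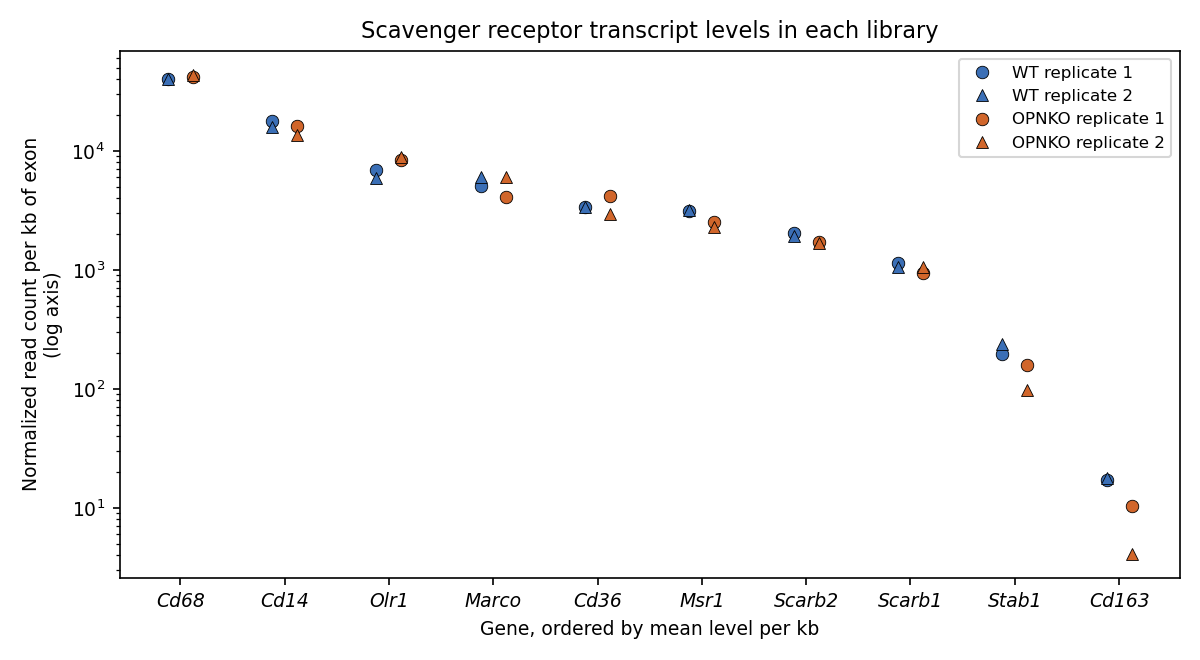
Normalized read count per kb of exon (log axis) of the 10 scavenger receptor genes, with 1 point per library, WT in blue and OPNKO in orange. Cd68 is the highest gene in every library, and Cd163 the lowest, between 4.10 and 17.7.

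Between OPNKO and WT libraries Msr1 fell, and it was the 1 gene of 10 past a limma adjusted p of 0.05. Over all 16431 genes tested 4.32% passed, so 1 in 10 is read against that share and is no result about the group as a whole. The median log2 fold change of the 10 was -0.17, beside a median of -0.00056 over all tested genes. The libraries of the 2 genotypes did not overlap for 7 of the 10 genes, 5 lower and 2 higher in OPNKO, and that was true of 52.7% of all tested genes. The other tests gave these calls: the authors' deposited table called 3 (Olr1, Msr1 and Stab1, with 4.34% of all its genes), edgeR's quasi-likelihood test called 1 (Msr1, with 4.96%) and DESeq2 called 3 (Olr1, Msr1 and Scarb2, with 8.66%). The summed level of all 10 hardly moved, at 171845 and 166364 in WT and 169577 and 167078 in OPNKO, and made up 0.380%, 0.381%, 0.372% and 0.375% of all values.

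**Figure D2:**
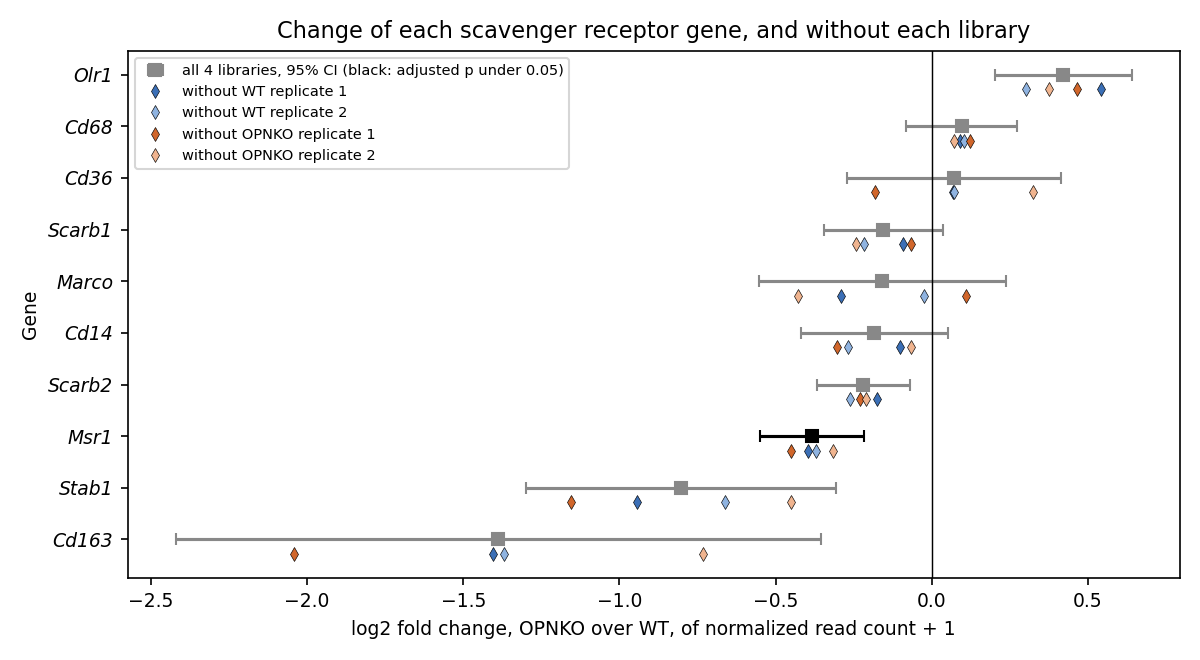
Log2 fold change of OPNKO over WT for each gene (squares, 95% confidence interval, on log2 of the normalized read count plus 1), black where the adjusted p is under 0.05, and the same value with each library left out (diamonds). Msr1 is the 1 black square at -0.38; Marco and Cd36 cross 0 when OPNKO replicate 1 is left out.

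Msr1 and Marco are the class A receptors, trimeric proteins with a collagen-like stalk that bind oxidized lipoproteins and bacteria. Msr1 (ENSMUSG00000025044, chromosome 8 from 39581685 to 39642673, minus strand, GRCm38) had normalized read counts of 19729 and 20101 in WT and 15992 and 14581 in OPNKO. Both OPNKO libraries lay below both WT libraries, and the gap between genotypes exceeded the gap within either. The mean fell from 19915 ± 263 to 15286 ± 998 (SD, n = 2), or 76.8% of WT. Its log2 fold change was -0.38 ± 0.07 (SE), with a 95% interval of -0.55 to -0.22 (limma adjusted p = 0.0316, lower in 2 of 2 OPNKO libraries). In bulk samples fewer cells of a type and less RNA per cell cannot be told apart. Leaving out each library in turn kept the log2 fold change between -0.45 and -0.32, with no call. It was -0.40 and -0.37 when WT replicate 1 or 2 was left out. It was -0.45 and -0.32 when OPNKO replicate 1 or 2 was left out. Each of these fits left 1 library in a genotype. With no filter on low values the log2 fold change of Msr1 stayed at -0.38 (limma adjusted p = 0.128), a setting under which 1 gene of the whole table passed. Beside Msr1, 3 of 10 monocyte markers fell, Ccr2 (-1.14), Vcan (-1.30) and Ace (-0.77), with 4.32% of all tested genes past the threshold. Of the 10 monocyte markers 9 had a negative log2 fold change. Fn1, a matrix protein gene, made up most of the summed level of this list, at 403744 and 393762 in WT, against 428601 and 368680 in OPNKO. The other 9 summed to 61304 and 57863 in WT, with 47692 and 43800 in OPNKO, which do not overlap. Monocyte markers were not alone in this. Of 8 dendritic cell markers 2 fell, Fscn1 (-1.94) and Mgl2 (-1.27), and 7 had a negative log2 fold change. None of the markers of these 2 lists was at 0, and their part in the fall of Msr1 was not tested.

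The genes whose profile over the 4 libraries lay nearest to that of Msr1, among 11622 others with a mean value of at least 50, were Scamp5 (a distance of 0.03 in centred log2 values), Nckap5l (0.03) and Ddt (0.04). Their log2 fold changes were -0.38 each, and of these Scamp5 passed (limma adjusted p = 0.0386). In all, 70 genes lay within a distance of 0.1, so 4 libraries do not single out a few.

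Marco, the receptor that marks alveolar macrophages and binds unopsonized particles, had 9708 and 11671 in WT and 7918 and 11494 in OPNKO. These groups overlapped, and the OPNKO libraries differed from each other by 1.45-fold. Its log2 fold change was -0.16 with a 95% interval of -0.55 to 0.24 (limma adjusted p = 0.643). It was 0.11 without OPNKO replicate 1 and -0.43 without OPNKO replicate 2, so the direction rested on 1 library. Of the 10 alveolar macrophage markers, a list that holds Marco, 2 rose by limma (Krt79, 1.38, and Pparg, 0.41) and 2 fell (Car4, -0.68, and Ear2, -0.39). Chil3 (-0.84) and Mertk (0.34) missed by limma (adjusted p of 0.0528 and 0.0560). Both passed in the authors' deposited table (adjusted p of 0.00202 and 0.00259).

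The class B receptors have 2 membrane passes and include Cd36, which takes up oxidized lipoproteins and long-chain fatty acids, Scarb1, which exchanges cholesterol with high-density lipoprotein, and Scarb2, a lysosomal protein that carries glucocerebrosidase to the lysosome. Cd36 had 11997 and 12018 in WT, against 15022 and 10586 in OPNKO. The WT libraries differed by 1.00-fold, while the OPNKO libraries lay on either side of them, 1.42-fold apart. The log2 fold change was 0.07 with an interval of -0.27 to 0.41 (limma adjusted p = 0.825). It was -0.18 without OPNKO replicate 1 and 0.32 without OPNKO replicate 2, and passed in neither.

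Scarb1 had 9758 and 8962 in WT and 7912 and 8921 in OPNKO. OPNKO replicate 2 lay just below WT replicate 2, so the groups touched without overlap. The log2 fold change was -0.15 (95% interval -0.34 to 0.03, limma adjusted p = 0.325). Scarb2 had 12728 and 12003 in WT and 10689 and 10549 in OPNKO. These groups were clearly apart, with OPNKO at 85.9% of WT. Its log2 fold change was -0.22 ± 0.06 (SE, 95% interval -0.37 to -0.07), which did not pass by limma (adjusted p = 0.105) or in the authors' deposited table (adjusted p = 0.125) and passed by DESeq2 (adjusted p = 0.0384).

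Olr1, a C-type lectin-like receptor known as the endothelial receptor for oxidized low-density lipoprotein, had the greatest positive value of the 10. Its normalized read counts were 24826 and 21022 in WT and 29659 and 31540 in OPNKO, so both OPNKO libraries lay above both WT libraries. The mean was 22924 ± 2690 in WT and 30600 ± 1330 in OPNKO (SD, n = 2), with a log2 fold change of 0.42 ± 0.09 (SE, 95% interval 0.20 to 0.64). Olr1 missed the threshold by limma (adjusted p = 0.0554) and passed in the authors' deposited table (adjusted p = 6.21e-04). It also passed by limma when values were rescaled by TMM factors (adjusted p = 0.0463) or to equal totals (adjusted p = 0.0346). It did not pass by edgeR (adjusted p = 0.0596) or by limma with no filter on low values (adjusted p = 0.168). Of 13 alternative settings Olr1 passed in 4, and its direction was kept in all 13. Leaving out each library in turn gave log2 fold changes of 0.30 to 0.54. Endothelial cells, where Olr1 is also known, had 11 of 12 markers highest in WT replicate 2, the library with the lowest Olr1. Of 12 endothelial markers 11 had a negative log2 fold change and Vwf rose (0.38), and the list had summed levels of 5307 and 7844 in the WT libraries and 7297 and 6720 in OPNKO. Vwf made up most of these sums, and the other 11 summed to 754 and 2972 in WT, with 1000 and 792 in OPNKO, so WT replicate 2 stood above the other 3 libraries. None was at 0, and their part in the Olr1 value was not tested.

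Cd68 had 50112 and 50539 in WT, against 52864 and 54753 in OPNKO, the other gene of the 10 with both OPNKO libraries above both WT libraries. Its log2 fold change was 0.10 ± 0.08 (SE), with a 95% interval of -0.08 to 0.27 (limma adjusted p = 0.515).

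The sequences before the annotated starts of Olr1 and Cd68 are shown because these were the genes of the 10 that lay higher in both OPNKO libraries, and that of Stab1 because it lay lower and passed in the authors' table. Each is the 250 bases upstream of the RefSeq start on GRCm38, read 5′ to 3′ on the gene's strand: chr6:129507166-129507415 (minus) for Olr1, chr11:69666171-69666420 (minus) for Cd68 and chr14:31168642-31168891 (minus) for Stab1. Capitals mark matches on either strand to the PU.1-type ETS motif GAGGAA, the AP-1 site TGANTCA, the E-box CACGTG, the nuclear receptor half-site AGGTCA, the TATA box TATAAA and the GC box GGGCGG.
Olr1: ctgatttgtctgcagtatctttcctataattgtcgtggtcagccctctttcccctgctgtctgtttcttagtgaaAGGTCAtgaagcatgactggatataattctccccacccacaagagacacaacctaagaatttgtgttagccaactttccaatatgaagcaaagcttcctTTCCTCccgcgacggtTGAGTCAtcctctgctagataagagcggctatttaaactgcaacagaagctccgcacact
Cd68: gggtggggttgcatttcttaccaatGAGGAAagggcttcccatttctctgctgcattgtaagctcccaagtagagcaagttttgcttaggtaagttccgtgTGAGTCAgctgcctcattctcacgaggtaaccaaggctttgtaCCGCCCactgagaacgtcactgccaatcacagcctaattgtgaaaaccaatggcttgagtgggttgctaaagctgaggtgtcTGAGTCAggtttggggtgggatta
Stab1: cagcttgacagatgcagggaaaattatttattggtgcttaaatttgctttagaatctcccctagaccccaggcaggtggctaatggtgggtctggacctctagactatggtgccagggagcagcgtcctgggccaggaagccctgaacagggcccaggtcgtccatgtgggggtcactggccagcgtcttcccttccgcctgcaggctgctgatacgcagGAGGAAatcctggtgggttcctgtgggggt
The AP-1 letters were found 54 bases before the start of Olr1, and 18 and 143 bases before that of Cd68, and in 6.75% of all 32851 promoter windows of this length. Of the 10 genes 7 matched the RefSeq promoter table (Msr1, Scarb1 and Cd14 did not), and AP-1 letters were in these 2 of the 7. GAGGAA was in 4 of the 7 (Marco, Stab1, Olr1 and Cd68) and in 23.3% of all windows. AGGTCA was in Cd36 and Olr1 and in 14.0% of windows, and GGGCGG in Cd36, Scarb2 and Cd68 and in 32.7%. CACGTG and TATAAA were in none of the 7, beside 6.02% and 12.4% of windows. No marked match overlapped another in the 3 sequences shown. These matches describe the letters in the window and are not evidence of binding.

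Because a ratio of 2 genes within a library does not depend on its scaling factor, ratios between members were also taken, 6 in all, chosen after the values were seen. Olr1 over Msr1 was 1.26 and 1.05 in WT and 1.85 and 2.16 in OPNKO. Msr1 over Cd68 was 0.394 and 0.398 in WT and 0.303 and 0.266 in OPNKO, and Olr1 over Cd68 was 0.495 and 0.416 in WT and 0.561 and 0.576 in OPNKO. In 5 of the 6 ratios, these 3 included, the genotypes did not overlap. That was true of 52.7% of all tested genes taken singly, and no such share was taken over ratios. Most of the 6 ratios contain Msr1, so they are not separate results. Cd36 over Marco was the ratio that did overlap, at 1.24 and 1.03 in WT and 1.90 and 0.921 in OPNKO. With 2 libraries in each genotype the smallest two-sided p of an exact permutation test is 0.333, so the ratios are given as values. The remaining ratios were Cd36 over Msr1, at 0.608 and 0.598 in WT and 0.939 and 0.726 in OPNKO, and Stab1 over Msr1, at 0.103 and 0.123 in WT and 0.102 and 0.0689 in OPNKO. For Stab1 over Msr1 the genotypes nearly touched, at 0.1029 in WT replicate 1 and 0.1023 in OPNKO replicate 1.

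**Figure D3:**
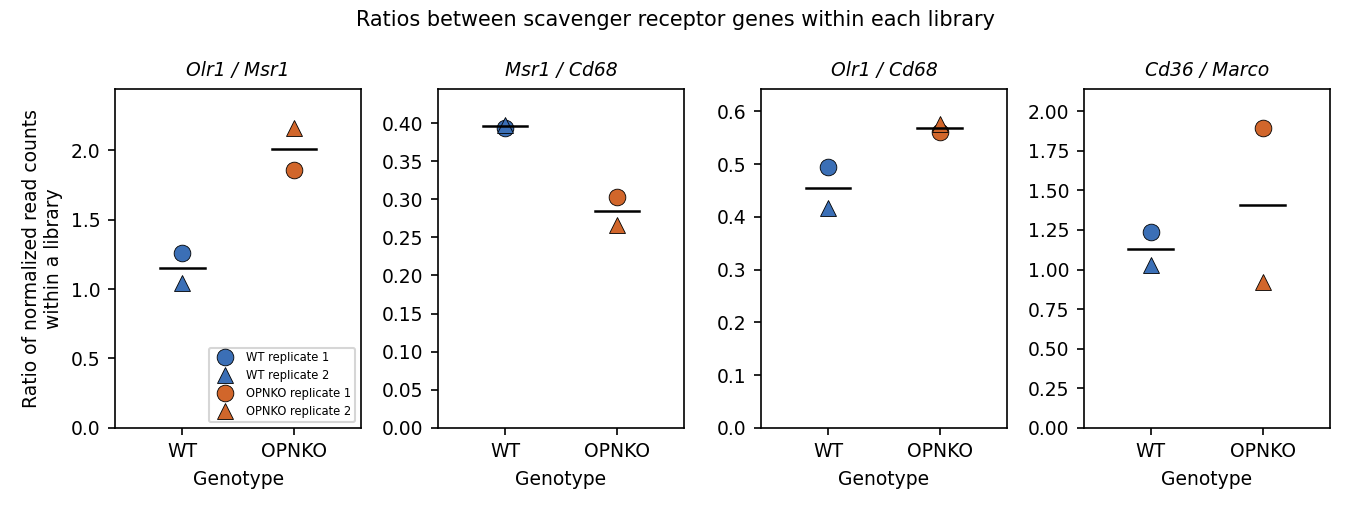
Ratios of normalized read counts between pairs of scavenger receptor genes within each library (points), with the mean of each genotype as a line. The Olr1 to Msr1 ratio is 1.05 to 1.26 in WT and 1.85 to 2.16 in OPNKO, while the Cd36 to Marco ratios of the genotypes overlap.

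Stab1 and Cd163 were the lowest of the 10 and had the most negative values. Stab1, or stabilin, is a large endocytic receptor of sinusoidal endothelium and tissue macrophages. Its normalized read counts were 2030 and 2467 in WT and 1636 and 1005 in OPNKO. Both OPNKO libraries lay below both WT libraries, yet they differed from each other by 1.63-fold. The mean was 2249 ± 309 in WT and 1320 ± 446 in OPNKO (SD, n = 2), with a log2 fold change of -0.80 ± 0.21 (SE, 95% interval -1.30 to -0.31). This did not pass by limma (adjusted p = 0.0848), edgeR (adjusted p = 0.0941) or DESeq2 (adjusted p = 0.211). It passed in the authors' deposited table (adjusted p = 0.0211). Leaving out OPNKO replicate 1 gave -1.16 (limma adjusted p = 0.0137) and leaving out OPNKO replicate 2 gave -0.45 (limma adjusted p = 0.131). Of its 10288 exon bases 112 overlap exons of Nt5dc2 on the opposite strand, and the sources used here do not say whether counting used strand.

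Cd163, the receptor that clears haemoglobin bound to haptoglobin, was close to the bottom of the range, with 86 and 99 reads in WT and 50 and 18 in OPNKO. The 95% Poisson intervals were 68.8 to 106 and 80.5 to 121 reads in WT, and 37.1 to 65.9 and 10.7 to 28.4 in OPNKO, and cover counting error only. As normalized read counts these were 94.3 and 96.6 in WT, against 57.1 and 22.4 in OPNKO. The WT libraries were nearly equal, while OPNKO replicate 1 held 2.55-fold more than OPNKO replicate 2. The log2 fold change was -1.39 ± 0.44 (SE, 95% interval -2.42 to -0.35), which did not pass (limma adjusted p = 0.131). Leaving out OPNKO replicate 1 gave -2.04 (limma adjusted p = 0.0420), and leaving out OPNKO replicate 2 gave -0.73 (limma adjusted p = 0.296).

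Most markers of interstitial and other tissue macrophages, which are known to carry Cd163 and Stab1, were lowest in the same library, OPNKO replicate 2. Of 11 such markers other than Cd163, 8 had a negative log2 fold change, 0 passed by limma, and 8 had their lowest value there. Mrc1 was highest there, at 87545. This was not particular to the list: 8 of 9 fibroblast, 6 of 8 B and plasma cell and 6 of 12 endothelial markers were also lowest in OPNKO replicate 2. Of 8 T cell markers 0 were. Among the 11 interstitial and other tissue macrophage markers, 4 were lower by unadjusted limma p under 0.05, and by edgeR and DESeq2 0 and 3 passed. Lyve1, a hyaluronan receptor that is also among the 12 endothelial markers, had 65.8 and 205 in WT and 32.0 and 26.1 in OPNKO. Timd4, a phosphatidylserine receptor, had 117 and 87.8 in WT, against 49.1 and 13.7 in OPNKO. The complement gene C1qc had 14841 and 15508 in WT, against 15966 and 8188 in OPNKO. The 11 markers had summed levels of 140952 and 153747 in the WT libraries and 144875 and 130774 in OPNKO, and none was at 0. Without Mrc1, the most abundant of them, the other 10 summed to 62825 and 71031 in WT, with 64661 and 43230 in OPNKO, lowest in OPNKO replicate 2. Their part in the Stab1 and Cd163 values was not tested.

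**Figure D4:**
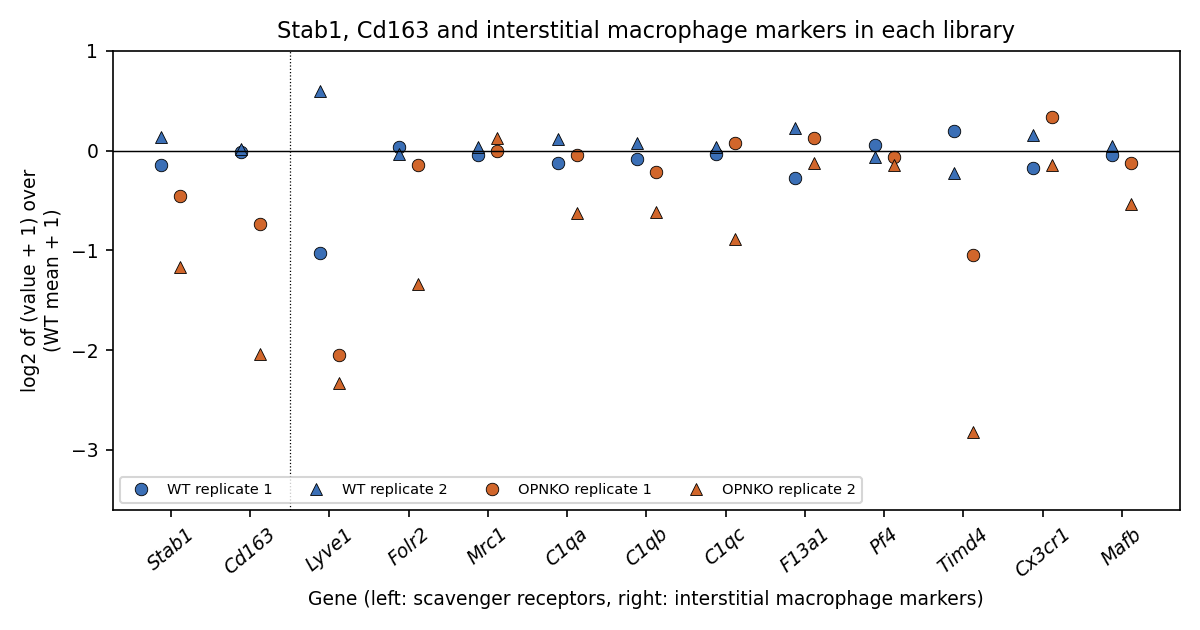
Level of Stab1, Cd163 and 11 markers of interstitial and other tissue macrophages in each library, as log2 of the value plus 1 over the WT mean plus 1. OPNKO replicate 2 (orange triangles) lies below OPNKO replicate 1 for Stab1 and Cd163 and for 10 of the 11 markers.

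Cd14 had 30862 and 27484 in WT and 27828 and 23626 in OPNKO, so the groups overlapped. Its log2 fold change was -0.18 with a 95% interval of -0.42 to 0.05 (limma adjusted p = 0.346). Of 15 partners of Cd14 and Cd36 in sensing lipopolysaccharide and lipopeptides, 0 passed by limma (3 at an unadjusted p under 0.05, 0 by edgeR and 1 by DESeq2). Tlr4, the signalling receptor for lipopolysaccharide, had a log2 fold change of 0.07, Ly96, its co-receptor, 0.25, and Tlr2, the lipopeptide receptor, 0.20. Others went the other way, with 8 of the 15 negative. Tlr1 had the greatest change of the list, at -0.45 (limma adjusted p = 0.191). The median of all 15 partners was -0.03.

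Of 14 other scavenger receptor family genes in the table, 1 fell and 0 rose, with a median log2 fold change of -0.03. The gene that fell was Cd5l, a secreted protein with the cysteine-rich domain of this family, which had 365 and 205 in WT and 77.6 and 34.9 in OPNKO (log2 fold change -2.37 ± 0.42 SE, limma adjusted p = 0.0273). The abundant mannose receptor gene Mrc1 (0.06), the beta-glucan receptor gene Clec7a (-0.04) and the endocytic receptor gene Lrp1 (0.22) did not pass. Of 15 transcription factor genes known to act on scavenger receptors, Pparg, the nuclear receptor that drives Cd36, rose, from 5547 ± 358 in WT to 7390 ± 423 in OPNKO (SD, n = 2), and 0 fell. On the log2 scale Pparg changed by 0.41 (limma adjusted p = 0.0283). Cd36 itself did not pass, as given above.

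Genes that handle lipoprotein cargo after uptake had mostly positive values. Of 17 tested, 3 rose and 0 fell, 15 had a positive log2 fold change, and the median was 0.12. They were Abcg1, which exports cholesterol (0.58 ± 0.08 SE, limma adjusted p = 0.0143), Dgat2, which makes triglyceride (0.67 ± 0.13 SE, limma adjusted p = 0.0371), and Cidec, a lipid droplet protein (1.85 ± 0.17 SE, limma adjusted p = 0.00306). Pdzk1, the adaptor of Scarb1 in liver, had 1 read in all and was not tested. Of 14 lysosomal partners of Scarb2 and Cd68, 0 passed by limma (1 at an unadjusted p under 0.05, 0 by edgeR and 2 by DESeq2), with a median of 0.10. Among 10 genes of haemoglobin and haem handling, Hp, which encodes haptoglobin, rose (0.77 ± 0.16 SE, limma adjusted p = 0.0426) and Hmox1, the haem-degrading enzyme gene, fell (-0.77 ± 0.11 SE, limma adjusted p = 0.0135). In all, 7 of 84 tested genes of these lists passed (8.33%, beside 4.32% of all genes tested), and without WT replicate 1, or without WT replicate 2, 0 did, in fits where 4 and 11 genes of the whole table passed.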

How the data were processed

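RNA of sorted alveolar macrophages was sequenced in 2 WT and 2 OPNKO libraries. The submitters' processing notes list the aligner STAR 2.4.1d, the counter HTSeq 0.6.1p1, the trimmer Trim Galore 0.4.0 and the package edgeR. The sources used here do not give the genome build, annotation or strand setting of the counting. The deposited table holds a normalized signal per gene (read counts divided by size factors), with the authors' log2 fold changes, Wald test scores and p-values, per the file headers, for their own comparison. Dividing by each library's step gave whole reads for 100% of values within 0.001 reads. Another 2 columns of per-sample values matched no sample and were not used. Gene IDs were matched to GENCODE M21 on GRCm38 (16542 matched, 213 not) for positions and exon lengths.

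The members and the gene lists were chosen with earlier results of these data known. Log2 of the value plus 1 was compared with limma 3.58.1 (trend) in R 4.3.3 over 16431 genes with a mean of at least 1, with Benjamini-Hochberg adjustment over all of them and a threshold of 0.05. Recovered reads were tested with edgeR 4.0.16 and DESeq2 1.42.0 as alternatives. Other alternatives were no filter, other pseudocounts, other scalings, a replicate block and leaving out each library. Each member was named, with the 3 genes nearest to Msr1 and the list genes past the threshold. Scripts were tested on simulated data. Replicates differed beyond sampling noise (chi-square per degree of freedom 14.7 in WT and 16.8 in OPNKO), so each counted as 1 sample.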

Additional observations from a re-analysis of the deposited data

How the results depend on the processing

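Msr1 kept its direction in all 13 settings and passed in 8. With no filter on low values its log2 fold change was -0.38 but 0 members and 1 gene of the table passed, and 0 list genes. Leaving out 1 library each gave -0.45 to -0.32 for Msr1, -0.43 to 0.11 for Marco, -0.18 to 0.32 for Cd36, -2.04 to -0.73 for Cd163, -1.16 to -0.45 for Stab1 and 0.30 to 0.54 for Olr1. It gave 0 to 2 members, 4 to 545 genes of the table (4 without WT replicate 1, 11 without WT replicate 2) and 0 to 10 list genes past the threshold. Olr1 passed with TMM rescaling (0.42), equal totals (0.40) and DESeq2 (0.41), and Scarb2 with DESeq2 (-0.23). Members called were 2 with TMM, 2 with equal totals, 3 with DESeq2, 0 at a threshold of 0.01 and 3 at 0.1. Over the table the count was 1136 with DESeq2, 161 at 0.01 and 1464 at 0.1, and over the lists 14 with DESeq2 and 1 at 0.01. The differences between replicates 1 and 2 in WT and in OPNKO were nearly uncorrelated over genes (-0.03). With 1 pair of libraries per genotype this cannot show whether the libraries were handled in pairs. With a replicate block Olr1 (0.42) and Stab1 (-0.80) passed, with 3 members, 1566 genes and 13 list genes. The causes were not tested. The smallest difference that 2 libraries a group can show was not established.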

Other observations

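Vwf, the gene of the clotting factor carrier of endothelium and platelets, rose while the other 11 endothelial markers had negative log2 fold changes. Its normalized read counts were 4553 and 4872 in WT and 6297 and 5929 in OPNKO (log2 fold change 0.38 ± 0.07 SE, limma adjusted p = 0.0288). Cdh5, the endothelial cadherin gene, had 134.9 and 639 in WT and 170.1 and 128.2 in OPNKO. Vwf did not share the high value of Cdh5 in WT replicate 2.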
